A study of Mus musculus with 8 samples.

Results

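The 38 Hox genes described here are listed members of the mouse Hox clusters, chosen by name and without use of their levels, out of 28014 genes counted. They comprise 10 members of Hoxa, 10 of Hoxb, 9 of Hoxc and 9 of Hoxd. RNA was counted in single CD31-positive cells sorted from the aorta-gonad-mesonephros region (AGM) at embryonic day 10.5, with CITE-seq, which reads RNA and antibody tags of the same cell. There were 5 libraries of WT embryos (strain C57BL/6, 8423 cells) and 3 libraries of strain Meis1-flox/VE-Cre, labelled Meis1-knockout (6745 cells), and each library was a pool of 2 to 5 embryos. Cre in the Meis1-flox/VE-Cre embryos is driven by the VE-cadherin promoter, so it acts in endothelium and in cells that descend from it, and Meis1 is floxed. Strain and Cre were tied to the genotype and cannot be told apart from it. The authors had assigned each cell to 1 of 10 cell types: arterial endothelium (aEC), venous endothelium in clusters vEC_1 to vEC_4, pre-hemogenic endothelium (pre-HE), EHT (cells undergoing the endothelial-to-hematopoietic transition), erythro-myeloid progenitors (EMP), Myeloid and Megakaryocytes.

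Hox genes encode homeodomain transcription factors that stand side by side in the genome in 4 clusters. Members are numbered by paralogue group, and the low-numbered end of a cluster is activated earlier and further towards the head than the high-numbered end. In blood-forming tissue the middle and posterior Hoxa genes are known for their activity in stem and progenitor cells, with PBX and MEIS proteins as DNA-binding partners.

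The clusters were located in mm10 (GRCm38) at chr6:52162417-52260880 for Hoxa, chr11:96194316-96368254 for Hoxb, chr15:102921131-103036856 for Hoxc and chr2:74668225-74765142 for Hoxd. Several annotated genes overlap, with Hoxa3 overlapping Hoxa4, Hoxa5 and Hoxa6, Hoxb3 overlapping Hoxb4, Hoxd3 overlapping Hoxd4, and Hoxd10 overlapping Hoxd11, and counts of these genes are uncertain where their transcripts share bases. Among the members the comparisons turn on, Hoxa7 lies at chr6:52215623-52218573, Hoxa9 at chr6:52223097-52227370, Hoxa10 at chr6:52231197-52240854 and Hoxb8 at chr11:96279401-96285325, and no other member overlaps these 4.

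Promoter windows of 250 bases before the RefSeq start site were found for 22 of the 38 members (RefSeq, GRCm38.p6), and 3 of them are printed because Hoxa7 and Hoxa9 were highest in EHT and Hoxb8 had the smallest p of the members between genotypes in vEC and EHT. The Hoxa7 window is chr6:52218574-52218823 on the minus strand, that of Hoxa9 is chr6:52227371-52227620 on the minus strand, and that of Hoxb8 is chr11:96281655-96281904 on the plus strand. The Hoxb8 window lies inside the full annotated span of Hoxb8. Capitals mark matches to a PBX-HOX motif (TGATNNAT) or a CDX-HOX9 motif (TTTATNG) on either strand.
Hoxa7: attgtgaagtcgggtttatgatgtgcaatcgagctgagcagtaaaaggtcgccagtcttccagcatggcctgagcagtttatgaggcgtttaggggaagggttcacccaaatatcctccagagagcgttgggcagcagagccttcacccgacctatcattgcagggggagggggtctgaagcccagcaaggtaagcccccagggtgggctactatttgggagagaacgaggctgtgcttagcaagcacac
Hoxa9: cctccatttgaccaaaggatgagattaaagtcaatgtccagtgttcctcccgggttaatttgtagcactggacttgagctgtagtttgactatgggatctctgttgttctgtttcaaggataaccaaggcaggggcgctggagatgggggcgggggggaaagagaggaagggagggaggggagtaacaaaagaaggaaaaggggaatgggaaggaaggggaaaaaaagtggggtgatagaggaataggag
Hoxb8: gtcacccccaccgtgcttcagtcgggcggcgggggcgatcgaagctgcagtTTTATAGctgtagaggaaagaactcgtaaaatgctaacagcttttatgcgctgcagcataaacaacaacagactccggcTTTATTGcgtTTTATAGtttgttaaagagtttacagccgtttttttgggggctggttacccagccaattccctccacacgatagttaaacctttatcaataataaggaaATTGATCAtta
Hoxb8 held 3 CDX-HOX9 matches and 1 PBX-HOX match, and the Hoxa7 and Hoxa9 windows held none of these or of the MEIS motif TGACAG. The MEIS motif was in 15.9% of all 32851 promoter windows and in 2 of the 22 members (Hoxa2 and Hoxa3). The PBX-HOX motif was in 7.68% of all windows and in 4 members (Hoxa2, Hoxb1, Hoxb8 and Hoxd11), and the CDX-HOX9 motif in 9.81% and in 2 (Hoxb8 and Hoxd4). Hoxa10 and Hoxd11 had 2 windows each, and a member counted if either window matched, so shares of windows and counts of members differ in unit.

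Levels are given as CPM, the unique molecular identifiers (UMIs) of a gene per 1000000 UMIs of all genes, summed over the cells of 1 type in 1 library. A UMI stands for 1 RNA molecule tagged near its 3′ end, so levels were not divided by length. Library totals ranged from 20484881 to 79429129 UMIs. Median UMIs per cell were 26572 to 28553 in WT 1 to 4, but 12720.5 in WT 5 and 9611.5 to 14895 in the Meis1-flox/VE-Cre libraries, so depth moved with genotype. Of 15135 distinct cell barcodes, 33 occurred in more than 1 library. The endothelial labels went with their markers, since summed CPM of 5 endothelial genes averaged 1097 over the endothelial clusters (EC, aEC and vEC together), 2568 in pre-HE and 332 in EHT, against 69.6 in EMP. The authors had formed the types by clustering these RNA counts on variable genes, so a test between types describes how these clusters differ and not cells defined by other means.

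Expression of the clusters was uneven. Over all cells the 38 members gave 64496 of 324208321 UMIs. Hoxa5 gave 10759, Hoxb4 7539 and Hoxb2 6024, and 14 members gave at least 1000. No UMI was found for Hoxb13, Hoxc11, Hoxc12 and Hoxd12, which allows up to 0.00925 CPM for each. A further 11 members had fewer than 100 UMIs (Hoxa6, Hoxa11, Hoxa13, Hoxb1, Hoxc5, Hoxc13, Hoxd1, Hoxd3, Hoxd10, Hoxd11 and Hoxd13), and 9 had at least 100 but fewer than 1000 (Hoxa2, Hoxa10, Hoxb6, Hoxc4, Hoxc6, Hoxc8, Hoxc9, Hoxc10 and Hoxd9). The 14 at or above 1000 were Hoxa3, Hoxa4, Hoxa5, Hoxa7, Hoxa9, Hoxb2, Hoxb3, Hoxb4, Hoxb5, Hoxb7, Hoxb8, Hoxb9, Hoxd4 and Hoxd8. Every member of groups 11 to 13 thus had fewer than 100 UMIs, and no Hoxc member reached 1000.

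The summed level of the members was high in endothelium and EHT and low in the blood types. In WT libraries it was 281 ± 5.98 CPM in EC (SD, n = 5), 291 ± 11.4 in EHT and 332 ± 47.4 in pre-HE. Within endothelium it was 151 ± 16.4 in aEC, 200.1 ± 14.1 in vEC_1, 274 ± 17.4 in vEC_2, 362 ± 24.7 in vEC_3 and 445 ± 37.5 in vEC_4, so each cluster in this order had a higher mean than the one before. In EMP it was 11.7 ± 4.07, in Myeloid 23.6 ± 13.1 and in Megakaryocytes 62.5 ± 46.1 (n = 4, since WT 3 held only 5 Megakaryocytes), where WT 5 alone reached 130.2. EHT and EC had sums that overlapped, yet different members carried them. Hoxa members gave 41.2% of the sum in EC and 73.0% ± 6.98 in EHT, and Hoxb members 47.8% and 24.1%. Hoxc members gave 1.05% in EC and 1.04% in EHT, and Hoxd members 9.98% and 1.85%.

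**Figure D1:**
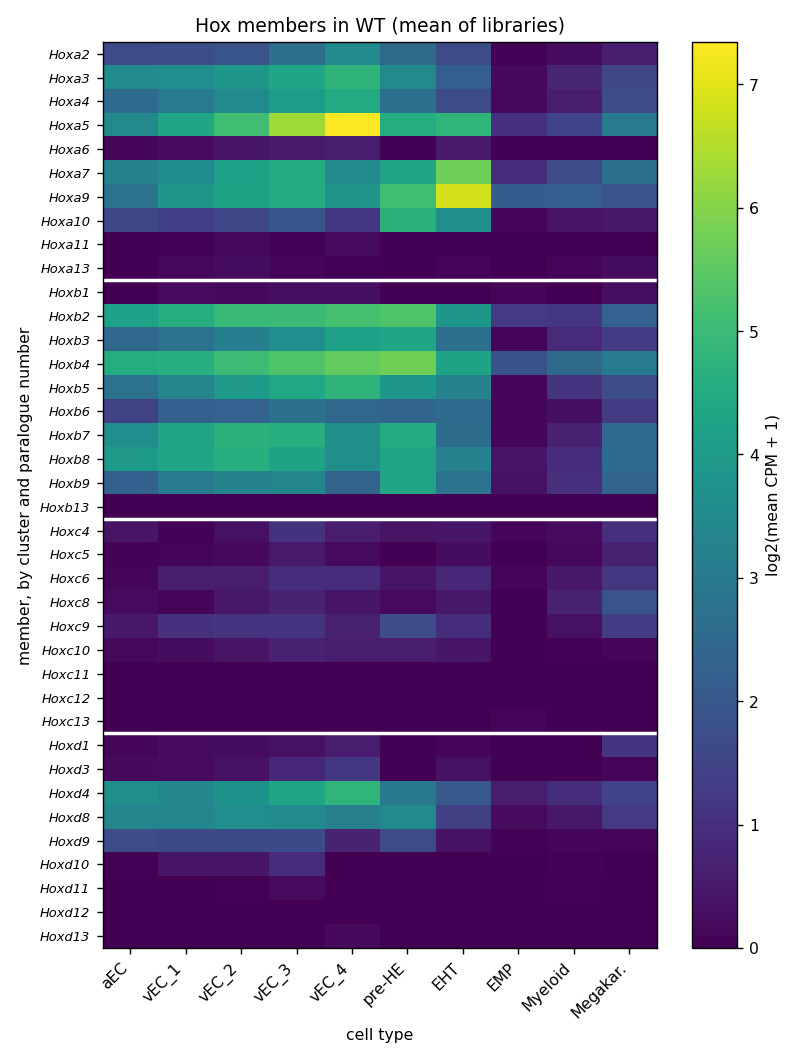
Mean WT level of each member, as log2(mean CPM + 1) on the colour scale, with members in rows by cluster and paralogue number and the 10 cell types in columns. The brightest cells are Hoxa5 in vEC_4 and Hoxa9 in EHT, the EMP and Myeloid columns are dark, and so are most Hoxc rows.

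By paralogue group the sum in EHT shifted towards the posterior end, and Hoxa9 and Hoxa10 carried this shift. Groups 9 to 13 held 10.5% of the member sum in EC, 24.6% in pre-HE and 45.5% in EHT. Groups 4 to 8 held 69.3% in EC and 45.8% in EHT, and groups 1 to 3 held 20.3% and 8.8%. Hoxa9 made up most of the group 9 to 13 level in EHT. Ratios of mean CPM in EHT over EC were 7.06 for Hoxa9, 5.63 for Hoxa10 and 1.07 for Hoxc10. They were below 1 for Hoxb9 (0.80), Hoxc9 (0.94) and Hoxd9 (0.14), and Hoxd10 was at 0 in EHT. With Hoxa5 as the reference, pooled UMIs gave a Hoxa9 to Hoxa5 ratio of 0.307 in EC (95% counting interval 0.293 to 0.322), 1.75 in pre-HE and 4.26 in EHT (3.70 to 4.92). The same ratio was 4.06 in EMP (2.32 to 7.52), where both genes were low. It was 2.09 in Myeloid (1.61 to 2.74) and 0.377 in Megakaryocytes (0.214 to 0.642). All such intervals cover counting error only.

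Counted by cell, RNA of at least 1 member was found in most EHT cells and most cells of the pooled endothelial clusters, and in few EMP cells. To set the types on 1 depth each cell was thinned to 5000 UMIs. A UMI of any member was then found in 64.9% ± 1.81 of EC cells (n = 5), 73.3% ± 7.62 of EHT cells, 2.76% ± 0.919 of EMP, 6.36% ± 2.58 of Myeloid and 16.1% ± 6.42 of Megakaryocytes. Without thinning the shares were 92.1% in EC, 96.4% in EHT, 23.4% in EMP, 30.3% in Myeloid and 42.8% in Megakaryocytes, at median depths of 22470, 25591.5, 46035.5, 39173 and 24314.5 UMIs per cell. Hoxa9 was found in 38.9% ± 2.26 of thinned EHT cells, 5.98% of EC cells and 1.16% of EMP cells. Hoxa7 was found in 23.1% of thinned EHT cells and in 0 of 390 thinned EMP cells, which allows up to 0.769% of cells with a UMI at that depth. Without thinning, 8 of the 390 EMP cells held a Hoxa7 UMI. Whether the UMIs in the low types came from free RNA or the cells themselves was not tested.

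Endothelium against the blood types was tested over WT libraries with edgeR's quasi-likelihood test and an adjusted p under 0.1 as the threshold. Hox members were higher in endothelium, from paralogue group 2 to group 10. Against EMP 18 of 18 members tested were called, all higher in EC, where 79.5% of all genes tested were called and 41.2% were called higher. The other 20 members were too low to be tested. Since members passed the count filter mostly through endothelium, these counts describe the tested members only. Against Myeloid 19 of 19 were higher (79.6% of all genes called, 39.4% higher), and against Megakaryocytes 16 of 19 (57.5% called, 30.2% higher), with Hoxa10, Hoxb9 and Hoxc9 not called.

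Hoxa5 is a middle member expressed in the trunk. In EC it was at 58.5, 54.9, 45.6, 46.0 and 50.9 CPM in WT 1 to 5, and in EMP at 1.32, 0.466, 1.94, 0.710 and 0.741. The groups did not overlap, and the log2 difference was 5.76 (SE 0.18, edgeR adjusted p = 7.13e-11). Hoxb4, which is known for expanding blood stem cells when overexpressed, was at 32.7, 32.7, 30.04, 31.5 and 33.2 CPM in EC and at 1.98, 1.86, 1.45, 4.44 and 2.97 in EMP, also without overlap. Where the blood type held 1 to 4 UMIs the pooled ratio is given in place of the fitted difference: Hoxb7 was 181 times higher in EC than in EMP (50.0 to 1494), Hoxb5 130 times (35.8 to 1071) and Hoxb6 75.7 times. The difference was smallest for Hoxa9 among the members tested against EMP, at 2.07 on the log2 scale (SE 0.37, adjusted p = 0.00027 by edgeR). Hoxa9 was at 13.9, 17.2, 18.9, 14.5 and 15.9 CPM in EC and at 9.58, 4.66, 0, 2.48 and 0.741 in EMP, so WT 1 had most of the EMP signal.

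Against Myeloid the largest log2 differences among members with at least 30 UMIs were for Hoxb7 (4.98), Hoxa4 (4.78), Hoxd8 (4.77) and Hoxa5 (4.69). Against Megakaryocytes Hoxd9 held 1 UMI, a pooled ratio of 11.6 (2.06 to 459), and the next fitted log2 differences were 2.62 for Hoxd4, 2.58 for Hoxd8, 2.55 for Hoxb2 and 2.52 for Hoxa5. Megakaryocytes also held signal of other cell types. Summed CPM of the 5 endothelial markers was 275 in them against 69.6 in EMP and 85.2 in Myeloid, that of 8 mesenchymal markers 42.8, of 4 neural markers 16.9 and of 5 erythroid markers 2567. Hoxa5 was at 2.18, 3.62, 6.62 and 15.8 CPM in Megakaryocytes of WT 1, 2, 4 and 5, and Hoxc8 at 0, 0.724, 2.48 and 7.49, so WT 5 was the highest for both. Hoxc8 averaged 2.67 CPM in Megakaryocytes and 0.353 in EC, and Hoxc4, Hoxc6 and Hoxc9 also had higher means there (1.04, 1.22 and 1.45 against 0.445, 0.622 and 1.00 CPM). Of these, Hoxc9 was tested and not called, and the others were too low to be tested. The part of the other cell types in the Hox level of Megakaryocytes was not tested. After thinning cells to 5000 UMIs, 9 members were called against Megakaryocytes (38.6% of all genes tested then).

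EHT was compared with the same blood types. Among the members tested, Hoxa9, Hoxa10 and Hoxa7 had the largest log2 differences against Myeloid (4.78, 4.62 and 4.38) and Megakaryocytes (4.86, 3.51 and 2.83), and Hoxa10, Hoxb5 and Hoxa7 had them against EMP. Against EMP 7 of 7 members tested were called, all higher in EHT (56.4% of all genes called, 28.8% higher), namely Hoxa5, Hoxa7, Hoxa9, Hoxa10, Hoxb2, Hoxb4 and Hoxb5. The same 7 were called against Myeloid (62.4% called, 30.6% higher). Against Megakaryocytes 8 of 9 were higher (54.3% called, 26.2% higher), and Hoxb9 was not called. Members passed the count filter mostly through EHT, so these counts too describe the tested members only. These comparisons use the same EHT sums, and each shares its blood sums with the endothelial comparison above. After thinning cells to 5000 UMIs 2 members were called against EMP, 3 against Myeloid and 1 against Megakaryocytes, where 36.4%, 46.8% and 50.1% of all genes tested were called.

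Hoxa9, a factor for expansion of blood progenitors, was at 130.2, 135, 111, 90.3 and 102 CPM in EHT of WT 1 to 5. It was at 9.58, 4.66, 0, 2.48 and 0.741 in EMP and at 5.49, 3.82, 1.67, 0.243 and 7.20 in Myeloid. Every EHT library was above every EMP and Myeloid library, with log2 differences of 4.84 (SE 0.25, edgeR adjusted p = 1.29e-09) and 4.78. Hoxa7 was at 54.5, 48.2, 56.0, 42.6 and 60.3 CPM in EHT and at 2.64, 0.466, 0.484, 0.710 and 0.371 in EMP, a log2 difference of 5.63 (SE 0.25, edgeR adjusted p = 3.32e-10). Hoxa10 gave 98 UMIs in EHT and 2 in EMP, a ratio of 93.7 (25.3 to 785), and Hoxb5 gave 79 and 2, a ratio of 75.5 (20.2 to 635). Hoxa9 was 4.86 higher on the log2 scale in EHT than in Megakaryocytes, where it was at 0, 4.34, 0.828 and 5.41 CPM in WT 1, 2, 4 and 5.

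**Figure D2:**
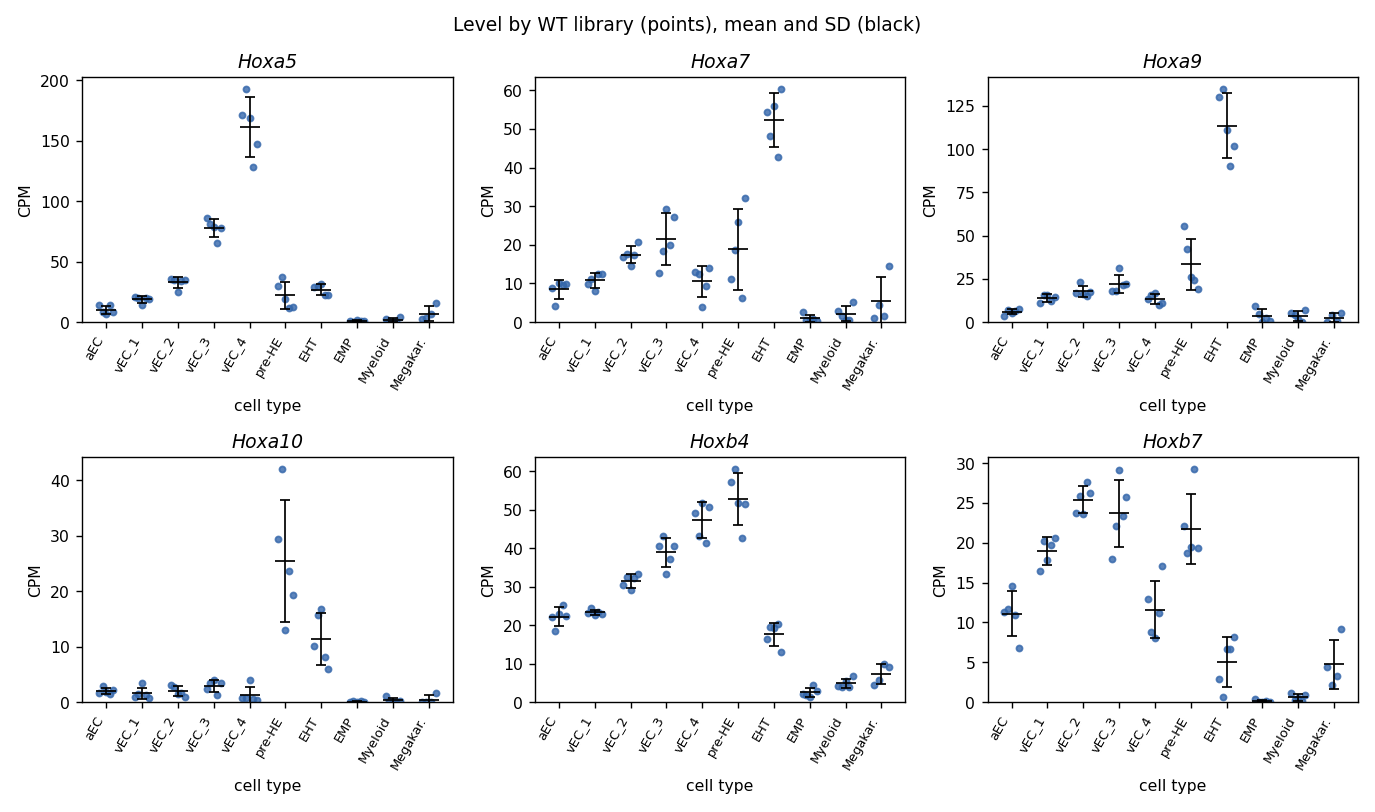
CPM of Hoxa5, Hoxa7, Hoxa9, Hoxa10, Hoxb4 and Hoxb7 on linear axes by cell type, with 1 point per WT library and the mean and SD in black. Hoxa7 and Hoxa9 peak in EHT, Hoxa10 in pre-HE and Hoxa5 in vEC_4, and all 6 members are low in EMP.

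Along the path from arterial endothelium through pre-HE to EHT, the 5 members called at the first step were called again at the second. Of these, Hoxa9 was higher at both steps, while Hoxa10, Hoxb7, Hoxb4 and Hoxb2 were higher in pre-HE and then lower in EHT. In pre-HE, Hoxa10 and Hoxa9 were higher than in aEC, and in EHT Hoxa9 was higher again, Hoxa7 was higher than in pre-HE and 7 Hoxb members were lower than in pre-HE. From aEC to pre-HE 5 of 11 members tested were called, all higher in pre-HE (42.1% of all genes called, 21.1% higher): Hoxa10 by 3.71 on the log2 scale (SE 0.36, edgeR adjusted p = 2.13e-11), Hoxa9 by 2.43 (SE 0.30), Hoxb7 and Hoxb4 by 1.05 each and Hoxb2 by 0.85. Hoxa3, Hoxa5, Hoxa7, Hoxb8, Hoxd4 and Hoxd8 were not called. In each comparison of this path a member could pass the count filter through only the type where it was higher. The counts of called members therefore describe the tested members only. The other 27 members fell under the filter here and were not tested. Of these, Hoxb9 (18.7 against 3.90 CPM), Hoxb3 (19.3 against 4.43) and Hoxb5 (13.8 against 5.82) were higher in pre-HE in all 5 libraries. The pre-HE sums held few cells, 171 over 5 libraries, and 46.5 CPM of the 8 mesenchymal markers (23.3 to 75.6 over libraries) against 2.86 in aEC (0.914 to 5.67). Of these 8, Twist1 (22.1 against 1.03 CPM) and Col3a1 (16.1 against 1.10) were the highest in pre-HE, Pdgfrb and Lum were at 0 there, and the part of such signal in the result was not tested.

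Between pre-HE and EHT 10 of 11 members were called, 2 higher and 8 lower in EHT (61.6% of all genes called, 31.6% higher and 30% lower). Hoxa7 and Hoxa9 were higher, by 1.96 (SE 0.28, edgeR adjusted p = 2.62e-07) and 1.71 (SE 0.18, edgeR adjusted p = 7.61e-10). Lower were Hoxb7 (-2.22), Hoxb3 (-1.83), Hoxb4 (-1.47), Hoxb2 (-1.43), Hoxa10 (-1.30), Hoxb8 (-1.13), Hoxb9 (-1.02) and Hoxb5 (-0.99), and Hoxa5 was not called. Apart from Hoxa10, the members called lower were Hoxb genes. The other 27 members were not tested. Of these, Hoxd8 (10.4 CPM in pre-HE against 1.64 in EHT), Hoxa3 (10.3 against 3.60) and Hoxd4 (6.84 against 3.14) also had lower means in EHT. Hoxb6 (4.23 against 4.88) did not.

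Hoxa10 had its highest mean in pre-HE. It was at 1.57, 2.94, 1.83, 1.48 and 2.25 CPM in aEC, at 29.5, 42.0, 12.97, 23.7 and 19.3 in pre-HE and at 10.1, 15.7, 16.7, 8.21 and 5.97 in EHT. The pre-HE and EHT values overlapped, while aEC lay below both. Hoxa9 was at 3.78, 6.75, 5.49, 6.22 and 7.64 CPM in aEC and at 55.3, 42.0, 25.9, 24.5 and 19.3 in pre-HE, and the EHT values given above lay above both. Hoxa7 was at 8.82, 4.11, 10.1, 9.62 and 9.88 CPM in aEC and at 11.1, 18.7, 25.9, 6.33 and 32.2 in pre-HE, which overlapped, while EHT lay above both. Hoxb4 was at 57.1, 60.7, 51.9, 42.7 and 51.5 CPM in pre-HE and at 16.4, 19.4, 19.2, 20.3 and 13.03 in EHT, and Hoxb7 at 22.1, 18.7, 19.4, 29.3 and 19.3 against 2.89, 0.626, 6.69, 6.65 and 8.14. Neither pair overlapped. The pre-HE sums of WT 2, 3 and 5 held only 214210, 154254 and 155345 UMIs of all genes. Their pre-HE values therefore rest on few UMIs per member. Pooled over WT libraries, pre-HE held 77 UMIs of Hoxa9, 27 of Hoxa7 and 114 of Hoxb4. The statements on overlap with pre-HE compare the printed values and do not allow for counting error.

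**Figure D3:**
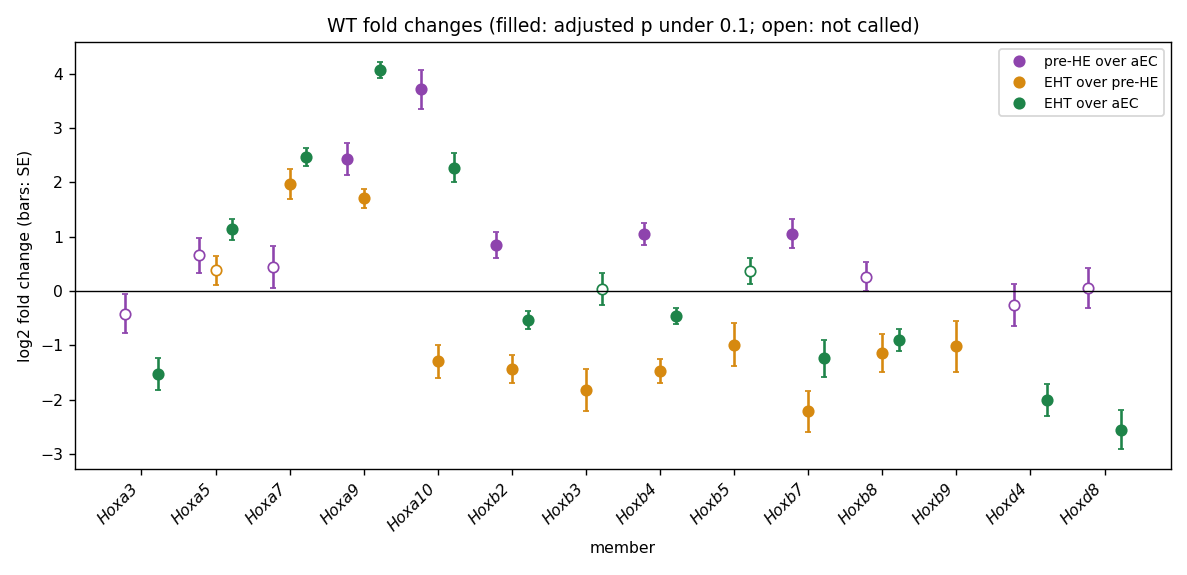
Log2 difference of each tested member between pre-HE and aEC, EHT and pre-HE, and EHT and aEC, in WT libraries, with SE as bars and filled points for an adjusted p under 0.1. Hoxa7 and Hoxa9 lie above 0 in both comparisons of EHT, Hoxa10 lies above 0 from aEC to pre-HE and below 0 from pre-HE to EHT, and Hoxd4 and Hoxd8 lie lowest from aEC to EHT.

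From aEC to EHT directly, 11 of 13 members tested were called, 4 higher and 7 lower (71.5% of all genes called, 35.8% higher and 35.7% lower). Higher were Hoxa9 (4.08, SE 0.15, edgeR adjusted p = 2.19e-12), Hoxa7 (2.47), Hoxa10 (2.27) and Hoxa5 (1.13). Lower were Hoxd8 (-2.56), Hoxd4 (-2.01), Hoxa3 (-1.53), Hoxb7 (-1.24), Hoxb8 (-0.90), Hoxb2 (-0.53) and Hoxb4 (-0.46). Hoxd8 was at 8.82, 12.04, 7.32, 9.77 and 8.99 CPM in aEC and at 1.45, 0, 1.67, 2.35 and 2.71 in EHT, with no overlap. All 4 members called higher are Hoxa genes of groups 5 to 10, and those called lower span Hoxa, Hoxb and Hoxd. The other 25 members were not tested. Among members not tested or not called, Hoxb6 (4.88 CPM in EHT against 1.71 in aEC), Hoxb9 (5.97 against 3.90) and Hoxb5 (8.69 against 5.82) had higher means in EHT. Hoxa4 (2.30 against 4.95) and Hoxd9 (0.283 against 2.36) had lower means. The 3 comparisons of this path share sums with one another, and after thinning cells to 5000 UMIs they gave 1 member called from aEC to pre-HE, 1 from pre-HE to EHT and 4 from aEC to EHT, where 36.4%, 61.1% and 61.0% of all genes tested were called.

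Within endothelium the levels of the members differed between clusters. Of the 5 endothelial clusters aEC had the lowest sum, and the venous clusters differed among themselves. Summed CPM of 5 arterial markers was 327 in aEC and 2674 in pre-HE, and that of 4 venous markers 348 and 85.8. The summed Hox level given above was higher in pre-HE than in aEC. In aEC against vEC 15 of 18 members tested were lower and 0 were higher (59.7% of all genes called, 30.5% lower), with the largest log2 differences for Hoxa5 (-2.28, SE 0.12, edgeR adjusted p = 5.16e-14), Hoxa9 (-1.44), Hoxb5 (-1.38) and Hoxa4 (-1.28), and with Hoxa10, Hoxd8 and Hoxd9 not called. Across the 5 endothelial clusters 18 of 18 members tested were called (80.1% of all genes tested), with the largest F for Hoxa5 (414), then Hoxb5 (56.9), Hoxd4 (52.2) and Hoxb4 (46.5).

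Hoxa5 was at 20.8, 20.03, 14.2, 19.97 and 19.4 CPM in vEC_1, at 86.2, 81.2, 78.2, 65.6 and 77.5 in vEC_3 and at 171, 193, 169, 128 and 147 in vEC_4. In aEC it was at 13.9, 8.22, 6.40, 14.1 and 8.09, so vEC_4 lay above vEC_3, vEC_3 above vEC_1, with no overlap. The vEC_4 and vEC_1 pair and the cut between groups 5 and 6 were chosen after the levels were seen. The following is a description. The 9 members of groups 2 to 5 with at least 30 UMIs (Hoxa2, Hoxa3, Hoxa4, Hoxa5, Hoxb2, Hoxb3, Hoxb4, Hoxb5 and Hoxd4) were higher in vEC_4 in all 5 libraries, by ratios of 1.52 to 8.56. Of 11 members of groups 6 to 10, 0 were higher in all 5 libraries and Hoxb7, Hoxb8, Hoxb9 and Hoxd9 were lower in all, with ratios from 0.30 to 1.69. Groups 4 to 8, the range used for the sums above, held members that went both ways, such as Hoxa5 (8.56) and Hoxb7 (0.61). The vEC_4 cells also had 33.1 CPM of the 8 mesenchymal markers, ranging from 18.9 to 43.9 over libraries, against 4.17 in vEC_1. Of these 8, 5 had a higher mean in vEC_4 than in vEC_1, namely Twist1 (18.4 against 1.91 CPM), Col3a1 (12.3 against 1.01), Prrx1 (1.16 against 0.375), Col1a1 (0.712 against 0.383) and Pdgfrb (0.283 against 0.0700). Pdgfra was lower (0.202 against 0.417), Lum was at 0 against 0.0134 and Dcn was at 0 in both. The part of such signal in the Hox differences between these clusters was not tested.

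**Figure D4:**
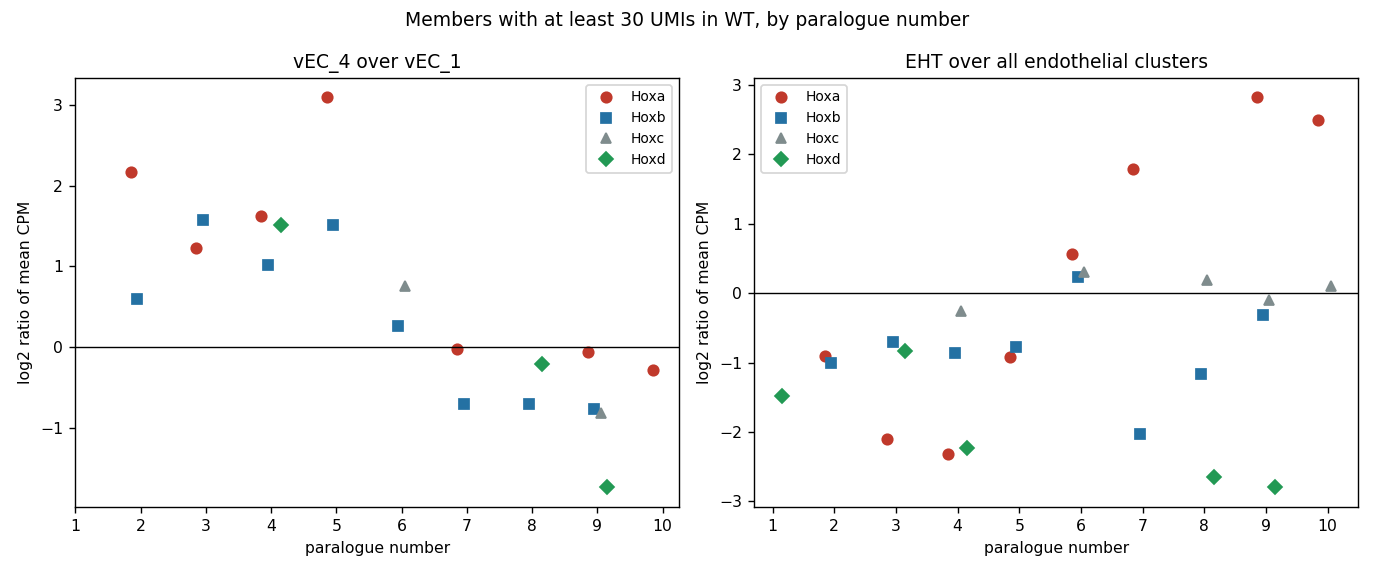
Log2 ratio of mean WT CPM against paralogue number, for vEC_4 over vEC_1 at left and EHT over the 5 endothelial clusters at right, with 1 point per member of at least 30 UMIs and shape and colour by cluster. Members 2 to 5 lie above 0 at left, Hoxa7, Hoxa9 and Hoxa10 lie furthest above 0 at right, and Hoxd10 is left out at right because it was at 0 in EHT.

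Genes of partners of the Hox proteins also differed along this path. Meis1, encoding a HOX partner, was at 1.18 CPM in aEC, 31.8 in pre-HE and 80.0 in EHT, and Meis2 at 8.66, 218 and 18.8. From aEC to EHT Meis2 was higher by 0.91 and Pknox1 by 0.42 on the log2 scale, and Pbx3 was lower (-1.02). From pre-HE to EHT Meis1 was higher by 1.35 and Meis2 lower (-3.46).

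Among 21 regulators of the clusters, 5 of 15 tested were higher in pre-HE than in aEC and 0 lower (42.1% of all genes called, 21.1% higher), with the retinoic acid-degrading enzyme genes Cyp26a1 (49.6 against 0.889 CPM) and Cyp26b1 (166 against 40.5) among them. From pre-HE to EHT 9 of 15 were called (61.6% of all genes), 3 higher (the Polycomb genes Eed, Ezh2 and Suz12) and 6 lower, among them Rara (-2.18), which encodes a retinoic acid receptor. Of 9 noncoding genes of the clusters in the table, 5 of 5 tested were higher in EC than in EMP (41.2% of all genes called higher), such as Hotairm1 at 29.1 against 0.755 CPM. Hotairm1, which lies at the anterior end of Hoxa, was lower in EHT than in pre-HE (-2.60) on the log2 scale. From aEC to EHT 4 of 4 tested were called (71.5% of all genes), with Hoxb5os higher (3.32) and Hotairm1 (-1.37), Hoxaas3 (-1.25) and Hoxb3os (-0.94) lower. Of 13 genes flanking the clusters, 4 of 8 tested were called from aEC to EHT (3 higher) in a comparison where 71.5% of all genes were called.

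Genotype was compared within each type, Meis1-flox/VE-Cre against WT. The floxed exon of Meis1 is not covered by 3′ tags, so its level does not check the deletion. Meis1 was at 85.8, 82.7, 82.8, 68.0 and 80.9 CPM in EHT of WT 1 to 5 and at 55.5 to 70.9 in the 3 Meis1-flox/VE-Cre libraries, which overlapped. In EMP it was at 77.0, 60.3, 56.7, 69.4 and 64.9 against 20.9, 36.4 and 25.4 CPM, with no overlap (log2 difference -1.20, edgeR adjusted p = 0.00663).

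No Hox member passed the threshold in any type with edgeR. Called were 0 of 14 members tested in aEC (0% of all genes called), 0 of 23 in vEC (0.0164%), 0 of 1 in pre-HE (0.489%), 0 of 9 in EHT (0.127%), 0 of 1 in EMP (4.74%), 0 of 10 in Myeloid (3.26%) and 0 of 1 in Megakaryocytes (0.206%). At an unadjusted edgeR p under 0.05 there were 6 of 23 members in vEC, where 1996 of 12205 genes tested passed. In EHT there were 4 of 9 (823 of 8670 genes) and in Myeloid 3 of 10 (1764 of 11479 genes). In pre-HE and EMP 1 member each passed (263 of 3682 and 1588 of 9172 genes). In aEC and Megakaryocytes 0 passed (1000 of 9540 and 686 of 7770 genes). DESeq2 called 1 in vEC (Hoxb8), where it called 1.28% of all genes fitted, and 0 in the other 6 types. The median log2 difference of the members tested was 0.17 in vEC and 0.47 in EHT, against 0.000828 and 0.00169 for all genes tested. Summed over members, EHT was at 291 ± 11.4 CPM in WT and 321 ± 36.7 in Meis1-flox/VE-Cre (n = 3).

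The smallest unadjusted p among members in vEC and EHT were those of Hoxb8, Hoxb9 and Hoxb5. Hoxb8 was at 16.5, 17.2, 19.0, 20.7 and 24.0 CPM in vEC of WT 1 to 5 and at 30.2, 25.3 and 24.3 in Meis1-flox/VE-Cre, with a log2 difference of 0.48 (edgeR adjusted p = 0.208). In EHT it was at 3.86, 6.26, 5.01, 13.3 and 14.1 CPM against 16.5, 20.8 and 23.6, a log2 difference of 1.20 (edgeR adjusted p = 0.356). Neither pair of groups overlapped, although the nearest WT library was WT 5 in both, the WT library with the lowest median UMIs per cell. Hoxb9 in vEC was at 7.52, 6.70, 7.31, 8.04 and 9.70 against 9.78, 9.91 and 11.2 CPM, a log2 difference of 0.43 (edgeR adjusted p = 0.222), also without overlap. Hoxb5 was 0.34 higher in vEC (edgeR adjusted p = 0.272) and 0.91 higher in EHT (edgeR adjusted p = 0.42), and it overlapped in both.

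Depth also differed between the genotypes, and its part in these differences was not tested beyond the following values. With the median UMIs of a library as a covariate the Hoxb8 log2 difference was 0.17 in vEC and 0.59 in EHT, and against WT 5 alone, which has the depth of Meis1-flox/VE-Cre, it was 0.13 and 0.47. Without WT 5 it was 0.58 in vEC and 1.44 in EHT, and 3 members in vEC and 2 in EHT were then called, where 13.5% and 3.18% of all genes were called. In Myeloid the values were 1.48 for Hoxb7 (edgeR adjusted p = 0.192) and 0.68 for Hoxb4 (edgeR adjusted p = 0.192). Among the cofactors, Meis2 was at 12.9 CPM in EMP of Meis1-flox/VE-Cre against 0.203 in WT (edgeR adjusted p = 0.00457).

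**Figure D5:**
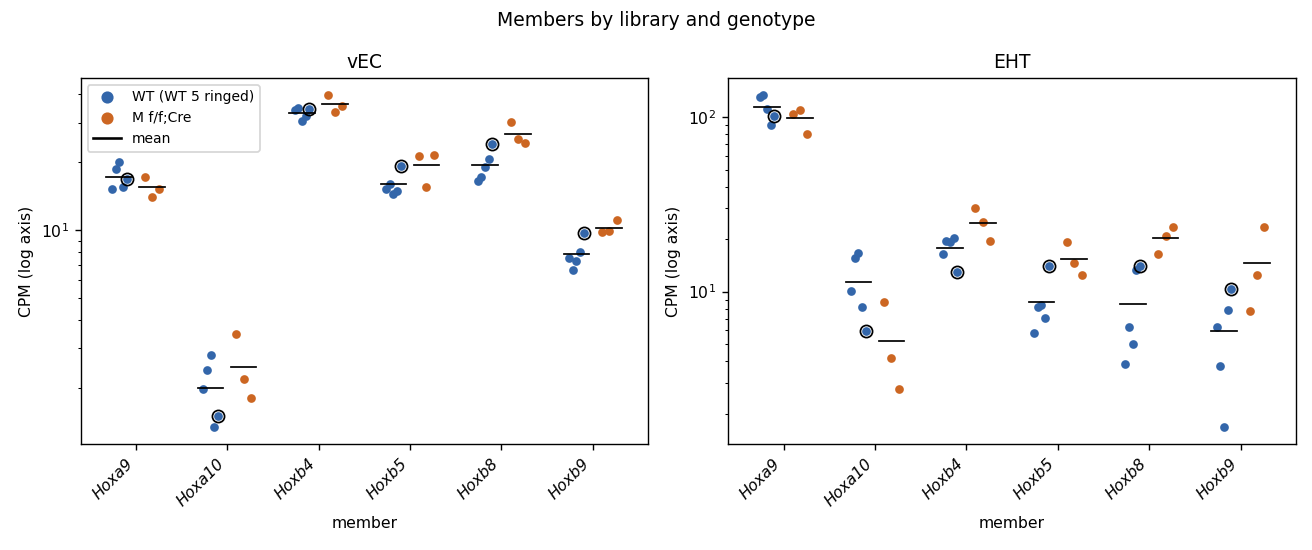
CPM on a log axis of 6 members in vEC and EHT, with 1 point per library, lines at the mean, WT 5 ringed and Meis1-flox/VE-Cre shown as M f/f;Cre. Hoxb8 is higher in all 3 Meis1-flox/VE-Cre libraries than in the WT libraries in both types, with WT 5 the nearest of WT, and no member passed the adjusted threshold.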

How the data were processed

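Raw UMI counts per gene and cell for 28014 genes in 15168 cells, as deposited by the authors, were used together with their table of sample, genotype and cell type. The authors counted 3′ tags (10x v3 chemistry; Cell Ranger 3.0.2 and mm10 are named in the submitters' processing notes), kept cells by number of genes and mitochondrial share (the table holds at least 2001 genes per cell and at most 9.98% mitochondrial counts), integrated the libraries and clustered the cells. No normalization had been applied to the deposited counts. Per-gene annotation came from RefSeq.

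Counts were summed over cells per library and cell type (at least 10 cells). Genes were tested in edgeR 4.0.16 (R 4.3.3) with TMM normalization, filterByExpr, its quasi-likelihood test and Benjamini-Hochberg adjusted p-values over all genes tested, two-sided, with 0.1 as the threshold. Type comparisons used WT libraries with a library block, and genotype comparisons had no block. DESeq2 1.42.0 was an alternative. SEs are the log2 difference divided by the root of F. Each library is a pool of 2 to 5 embryos. Scrublet (in scanpy 1.11.5) called 83 cells (0.547%) as doublets, which were kept. The fit was tested on simulated data. Full statistics were given for at most 6 called members per comparison, those of largest absolute log2 difference with at least 30 UMIs, and for genotype the 3 members of smallest p. Values by library were printed for further members chosen after their values were seen. Members and lists were chosen with earlier results of these data known. Libraries and cell types of cells were taken from the authors' table. Alternatives were another normalization, no count filter, DESeq2, thinned cells, doublets left out, larger sums, a stricter threshold, a joint fit, a depth covariate, the replicate block and each library left out in turn. P-values of the genotype comparisons measure the spread between pools. Those of the type comparisons, fitted with the library block, measure how the difference between types varied over pools. Counts over the cofactor list are not reported here.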

Additional observations from a re-analysis of the deposited data

Results flagged for a closer look

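Of the 42 member and cell type groups of WT libraries whose values were examined by library, 4 held 1 library far from the other 4. Chance sets 1 library apart in about 1 in 20 such groups. Hoxa5 in vEC_1 was at 14.2 CPM in WT 3 and at 19.4 to 20.8 in the others. Hoxa7 in aEC was at 4.11 CPM in WT 2 and at 8.82 to 10.1 in the others. Hoxa7 in EMP was at 2.64 CPM in WT 1 and at 0.371 to 0.710 in the others. Hoxd4 in aEC was at 21.0 CPM in WT 3 and at 8.22 to 10.3 in the others. WT 3 was the library with the fewest cells, 651. The part of cell number in these values was not tested.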

How the results depend on the processing

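Of 295 recomputed counts of called members 271 stayed within 1.5 times the main count. Of the recomputed differences of single members, 1174 kept their direction and their side of the threshold, 14 passed it, 2 no longer did and 2 turned sign. After thinning cells to 5000 UMIs, which leaves fewer counts to test, called members were 9 for EC against Megakaryocytes, 2 for EHT against EMP, 3 against Myeloid, 1 against Megakaryocytes, 1 for pre-HE against aEC, 1 for EHT against pre-HE and 4 for EHT against aEC. The shares of all genes called after thinning are given with these comparisons above. DESeq2 called 16 for EHT against EMP and 16 against Myeloid, where 23.3% and 30.3% of all genes fitted were called. No count filter gave 18 and 18 (37.7% and 39.6% of all genes), and a joint fit over all types 17 and 17 (56.0% and 64.1%). For pre-HE against aEC, no filter and the joint fit gave 8 each (25.6% and 40.2% of all genes). Hoxb2 there was 0.53 with sums of at least 20 cells and no longer called. Hoxb7 was 0.77 without WT 4 and no longer called. Leaving out 1 library in turn gave 7 to 11 called for EHT against Myeloid (11 without WT 3, with 58.5% of all genes called). For genotype it gave 0 to 3 in vEC, 0 to 2 in EHT and 0 to 3 in Myeloid. Each was highest without WT 5, where 13.5%, 3.18% and 12.3% of all genes were called. By genotype DESeq2 called 1 in vEC (1.28% of all genes fitted) and no filter 1 in EHT (1.49%). With the replicate block, over libraries 1 to 3 of each genotype, 4 members were called in vEC, 1 in EHT and 1 in Myeloid, where 19.5%, 5.68% and 11.6% of all genes were called. Same-numbered libraries deviated together in 8 of 20 pairs at a correlation over 0.1 (-0.14 to 0.27 over the pairs). Libraries of different numbers were not compared in this way, so whether same-numbered libraries share more than a number was not tested. Hoxb4 by genotype in Megakaryocytes turned from 0.45 to -0.16 with the depth covariate and ranged from -0.14 (without Meis1-flox/VE-Cre replicate 2) to 0.78 with 1 library left out. Shares of cells with a member UMI without thinning were 92.1% in EC, 96.4% in EHT, 23.4% in EMP, 30.3% in Myeloid and 42.8% in Megakaryocytes. Scaling by library totals alone, an alternative chosen after seeing the data, moved the median log2 difference of all genes by 0.24 for EHT against Megakaryocytes, 0.17 for EC against Megakaryocytes, 0.15 for EHT against Myeloid, 0.12 for EHT against aEC and 0.10 for EHT against EMP, and raised the share of higher calls from 51.0% to 63.8% for EHT against EMP from 48.2% to 67.0% for EHT against Megakaryocytes, from 49.1% to 64.5% for EHT against Myeloid, from 52.5% to 63.6% for EC against Megakaryocytes and from 50.0% to 61.0% for pre-HE against aEC. By genotype it lowered that share from 56.6% to 40.3% in EMP and from 45.5% to 28.7% in Myeloid. Causes of these changes were not tested. Members under the count filter, 15 to 37 per comparison, were left out of the main tests.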
